A study of Arabidopsis thaliana with 12 samples.

Results

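The comparison set cpr5scv1 plants against wild-type (WT) Arabidopsis thaliana on Affymetrix ATH1 arrays, and it was the comparison with the most changed transcripts among 5 genotypes set against WT. Its members were the 2 cpr5scv1 arrays and the 2 WT arrays, chosen by their titles, which made 4 of the 12 arrays in the study. All probe sets other than the 64 control sets were taken, 22746 in number, and the 15922 left after the dimmest 30% were removed were tested. Total RNA came from the aerial parts of plants 2 weeks old, grown with a 16 h photoperiod at 23 C and 70% humidity. The cpr5scv1 group carries the cpr5 mutation and the suppressor scv1, and WT is Columbia (Col-0). The other groups are cpr5 (stock N3770), cpr5npr1, cpr5npr1svi1 and npr1 (stock N3726), with 2 arrays each. The labels describe cpr5scv1 as a suppressor double mutant that P. parasitica infects as readily as it does the wild type, that is slightly more open to P. syringae and that resists B. cinerea. They describe cpr5npr1 as fully resistant to P. parasitica. Neither the allele names nor the gene behind scv1 is given, and the labels are silent on the plants behind the 2 arrays of a group, so that each p-value covers no more than the spread of the arrays at hand, which could be technical.

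CPR5 is a membrane protein of the nuclear envelope, and plants that lack it form spontaneous lesions, stay small and keep defence genes switched on without a pathogen. Much of plant defence runs through salicylic acid, whose transcriptional co-activator is NPR1, while jasmonate and ethylene act against fungi that kill their host tissue. Activated defence is accompanied by secretion of antimicrobial proteins and, in many mutants, by less investment in photosynthesis and cell expansion. The comparison asks how the transcripts of a cpr5 plant with the suppressor differ from those of an unmutated plant.

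The signal is a linear MAS5 value with no unit. Background was set at the 95th percentile of the signal of 27 bacterial control sets, which was 7.762. From 77.9% to 79.1% of probe sets lay above it in the cpr5scv1 arrays, and from 76.9% to 77.2% in the WT arrays. The median array signal was 42.59 and 42.06 in cpr5scv1, against 37.37 and 36.75 in WT. The median absolute log2 difference between the 2 arrays of a group was 0.238 in cpr5scv1 and 0.326 in WT, the least alike pair of the 6 groups. CPR5, NPR1, PR1, PR2 and PR5 had no probe set with 1 listed gene, and the labels were therefore not checked on the mutated genes. RCA, the leaf enzyme Rubisco activase, had a signal of 4172 and 4279 in cpr5scv1 and of 4804 and 6054 in WT (adjusted p = 0.335). EXPA7, a root hair expansin, lay between 7.34 and 11.3 in cpr5scv1 and between 2.0 and 10.5 in WT, near background in both. PYK10, a beta-glucosidase most abundant in roots, was bright in both groups, at 775 and 601 in cpr5scv1, against 165 and 773 in WT (adjusted p = 0.281), and its part in the results was not tested.

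Among the probe sets tested, 2045 rose and 1520 fell in cpr5scv1 relative to WT, at an adjusted p below 0.05 in limma with Benjamini-Hochberg adjustment. The called share was 22.4% in all, 12.8% higher and 9.55% lower. In the same model 1387 probe sets were called in cpr5 (8.71%), 1296 in cpr5npr1 (8.14%), 1905 in cpr5npr1svi1 (12%) and 1 in npr1 (0.00628%). All 5 counts use the same 2 WT arrays. The cpr5scv1 count was the highest of the 5, for all calls and for falls alone, in each of 21 settings, namely the settings used here and 20 alternatives. The SD of the log2 differences over all probe sets tested was 0.962 in cpr5scv1, 0.783 in cpr5npr1svi1, 0.765 in cpr5, 0.754 in cpr5npr1 and 0.387 in npr1. Differences in breadth between genotypes were not tested as such. With the replicate number as a block, 5412 probe sets were called in cpr5scv1, 2616 of them lower. Leaving out 1 array gave 1864 calls without cpr5scv1 replicate 1 and 2110 without cpr5scv1 replicate 2, and falls numbered 660, 801 and 881 without cpr5scv1 replicate 1, cpr5scv1 replicate 2 and WT replicate 1.

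**Figure D1:**
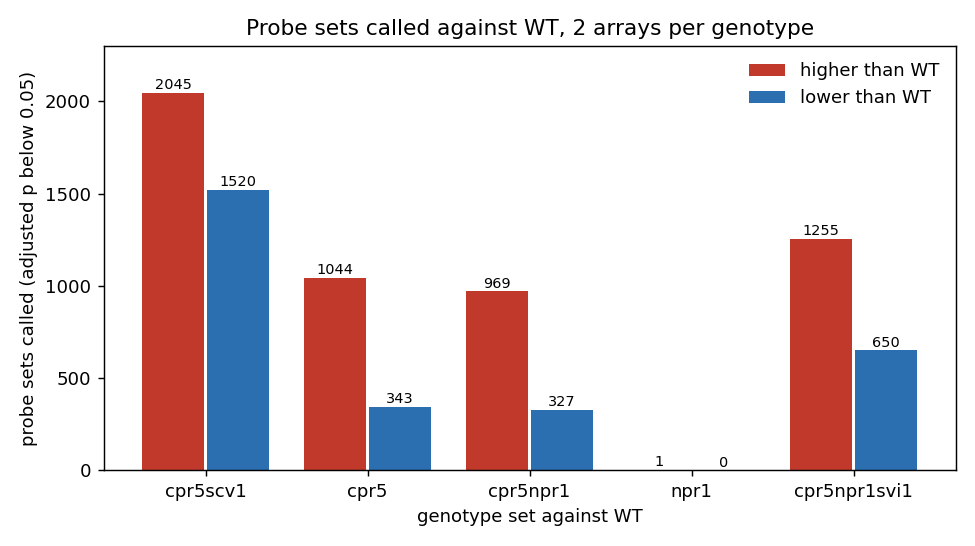
Number of probe sets called higher (red) and lower (blue) than WT in each mutant, out of 15922 tested, with 2 arrays per genotype. The cpr5scv1 bars, 2045 higher and 1520 lower, are the tallest of each colour, and npr1 has 1 call.

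Rises were larger than falls. The median log2 change of the 2045 rises was 1.36, and 591 of them exceeded 4-fold. The median of the 1520 falls was -0.90, and 71 exceeded 4-fold. Counted without a test, 1664 probe sets were over 2-fold higher and 728 over 2-fold lower in cpr5scv1, whereas 1235 were higher and 271 lower in cpr5. Probe sets that rose had a median signal of 143 in cpr5scv1 and 49.3 in WT, and the WT mean of 161 of them lay below background. Those that fell had a median signal of 110 in cpr5scv1 and 221 in WT. A core of 753 rises (4.73%) and 393 falls (2.47%) was called in the same direction under all 20 alternatives, which include leaving out each of the 12 arrays. Unless another setting is named, the genes described below belong to this core. Counts on gene lists are to be read beside the 12.8% of all probe sets that rose and the 9.55% that fell. The lists hold only members that the annotation identified, and only 1551 probe sets had a gene symbol other than the locus code. A list can therefore be a small part of its family or pathway, and its counts do not describe the whole. In whole aerial parts, fewer cells of a type and less RNA per cell cannot be told apart.

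The called falls sat mostly among bright probe sets. The probe sets tested were ranked by signal and split into 5 bins of equal size. In the dimmest bin 2.89% fell, and the share was 5.53%, 8.17%, 12% and 19.2% in the next 4 bins. Rises were spread more evenly, at 9.14%, 13.5%, 14.4%, 15.3% and 11.9%. The median absolute log2 change of called probe sets was 2.145 in the dimmest bin and 0.861 in the brightest. Smaller changes were thus called among bright probe sets, and the share called is not the share that changed. The median log2 difference was between 0.01 and 0.05 in the 4 dimmer bins and -0.21 in the brightest. This slope moved with the scaling of the arrays. After quantile normalization 4.18% of the dimmest and 15.3% of the brightest bin fell, with a median of -0.09 in the brightest. After scaling every array to 1 median 5.09% of the dimmest and 32% of the brightest bin fell, with a median of -0.40 in the brightest. The median over all probe sets tested was -0.01 as deposited, -0.11 after quantile normalization and -0.20 after scaling to 1 median, so changes are best read against those values. Rises made up 57.4% of calls as deposited, 50.4% after quantile normalization (1784 of 3543) and 37.2% after scaling to 1 median (1575 of 4239).

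**Figure D2:**
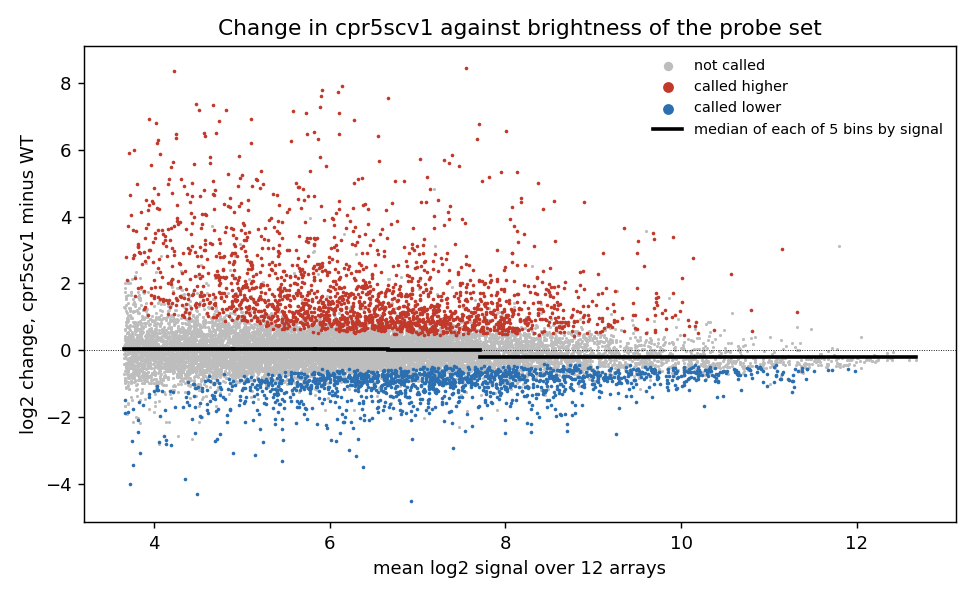
Log2 change (cpr5scv1 minus WT) of each of the 15922 probe sets tested against its mean log2 signal over 12 arrays, with called rises in red, called falls in blue and black lines at the median of each of 5 bins by signal. Rises reach far higher than falls reach down, and the median of the brightest bin lies at -0.21.

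Among probe sets with 1 listed gene, the largest rises included secreted antimicrobial proteins. OSM34, which encodes an osmotin-like protein, stood at 369 and 322 in cpr5scv1, against 3.92 and 1.27 in WT. It was at least 44.4-fold higher with the WT arrays raised to background (adjusted p = 4.67e-05). CHI (AT2G43570), annotated as a putative chitinase, an enzyme that cuts fungal cell walls, had a signal of 1055 and 1891 in cpr5scv1 and of 23.2 and 9.49 in WT. Its log2 change was 6.57 ± 0.54 (SE), or 95.2-fold (adjusted p = 2.67e-05). Both genes were far apart in the 2 groups, with no array of one group near those of the other. OSM34, dim in WT and npr1, passed the brightness filter through the groups in which it was high. A gene that dim in WT could be tested only if it was brighter elsewhere. The 3 genes on the list of chitinases, glucanases and osmotins were all tested and all rose. Their median log2 change was 6.57, the value of CHI, beside -0.01 over all probe sets tested. OSM34 and CHI had been picked as largest rises, so the count and the median mostly restate that choice. The third, ChiC, a chitinase, had a signal of 60.4 and 41.3 in cpr5scv1 and of 19.6 and 25.3 in WT (adjusted p = 0.0191), and lost its call without cpr5scv1 replicate 1 or WT replicate 1 (adjusted p up to 0.15).

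Several of the steepest rises were in loci that the gene table gives without a symbol. AT2G18690 had a signal of 847 and 727 in cpr5scv1, against 12.4 and 15.1 in WT (log2 change 5.84 ± 0.50, adjusted p = 3.3e-05). AT1G35710 had 1082 and 712 in cpr5scv1, against 14.1 and 26.5 in WT (log2 change 5.50 ± 0.44, adjusted p = 2.53e-05). In WT these 2 loci were dim but above background. AT1G26390 reached 482 and 788 in cpr5scv1, against 6.98 and 3.92 in WT, a rise of at least 79.4-fold (adjusted p = 0.0001). AT5G52760, at 351 and 318 in cpr5scv1 against 3.13 and 5.66 in WT, was at least 43-fold higher (adjusted p = 1.51e-05). Like OSM34, both were below background in each WT array. AT3G47480, AT1G76960, AT3G18250, AT4G00700, AT1G10340 and AT5G18470 were between 24.2-fold and 45.4-fold higher at least, each with 1 or both WT arrays below background. No role is given here for loci that the table does not describe.

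The list of salicylic acid and systemic resistance genes held 8 genes, of which 4 passed the filter. All 4 rose, with a median log2 change of 1.68. UGT74F1, UGT76B1, BSMT1 and PR-1-LIKE were not tested, and PR1, PR2 and PR5 could not be read. The 4 have different roles, so the count does not describe salicylic acid signalling alone. GRX480, a glutaredoxin that binds the TGA transcription factors, had a signal of 201 and 160 in cpr5scv1, against 23.1 and 13.2 in WT (log2 change 3.36 ± 0.67, adjusted p = 0.00511). BIK1, a cytoplasmic kinase that relays signals from immune receptors, had 208 and 182 in cpr5scv1, against 70.8 and 70.4 in WT (log2 change 1.46 ± 0.22, adjusted p = 0.000941). Its 2 WT arrays were nearly the same. SGT1A, a co-chaperone of intracellular resistance proteins, stood at 263 and 282 in cpr5scv1, against 98.5 and 125 in WT (log2 change 1.29 ± 0.17, adjusted p = 0.000466). The list of WRKY factors, a plant family that binds W-boxes in defence and senescence genes, held 7 genes. Of the 6 tested, 3 rose and 0 fell, also at an unadjusted p below 0.05. WRKY53, which promotes leaf senescence, was at 172 and 192 in cpr5scv1, against 27.3 and 30.6 in WT (log2 change 2.65 ± 0.34, adjusted p = 0.000443). WRKY47 was at 140 and 122 in cpr5scv1, against 29.4 and 32.7 in WT (log2 change 2.08 ± 0.21, adjusted p = 8.48e-05).

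Jasmonate and defensin genes did not move one way. Of 12 tested, 3 rose and 1, THI2.2, fell. With the replicate block 4 rose and 2 fell. JRG21, a jasmonate-regulated gene, had a signal of 196 and 299 in cpr5scv1, against 14.9 and 4.52 in WT, a rise of at least 22.5-fold (adjusted p = 0.0002). PDF1.2, a defensin that is the usual marker of the jasmonate and ethylene pathway, had 24.0 and 95.7 in cpr5scv1, against 4.48 and 15.2 in WT (adjusted p = 0.24). Its higher cpr5scv1 array was the second, and the spread between arrays was wide in both groups. THI2.2, a thionin, was lower, at 166 and 187 in cpr5scv1, against 291 and 1137 in WT (adjusted p = 0.0336), and was not called without either cpr5scv1 array or without WT replicate 2.

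Channels and calcium sensors followed. Glutamate receptor-like channels, which carry cations including calcium across membranes, rose in 4 of 7 tested genes, with a median log2 change of 2.12. GLR2.7 had a signal of 106 and 108 in cpr5scv1, against 11.2 and 16.8 in WT (log2 change 2.96 ± 0.25, adjusted p = 3.34e-05). GLR1.4 had 139 and 99.5 in cpr5scv1, against 36.1 and 20.3 in WT (log2 change 2.12 ± 0.35, adjusted p = 0.00184). Of 15 calcium signalling genes, 4 rose and 1 fell, and their median of -0.003 was that of the array as a whole. Rises numbered 2 without either cpr5scv1 array, and the single fall was lost without any array but cpr5npr1svi1 replicate 2. With the replicate block 4 rose and 2 fell. CML41, a calmodulin-like protein, was at 159 and 145 in cpr5scv1, against 7.15 and 30.7 in WT, a rise of at least 9.83-fold (adjusted p = 0.0025).

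Oxidative enzymes rose in part, with 21.4% of the P450 genes tested called higher beside 12.8% of all probe sets. Of 14 cytochrome P450 genes tested 3 rose, or 5 without WT replicate 2, and 0 fell, also at an unadjusted p below 0.05. CYP71B23 had a signal of 218 and 220 in cpr5scv1, against 7.28 and 10.8 in WT, a rise of at least 23.9-fold (adjusted p = 9.99e-06). CYP71B22 was at 96.3 and 124 in cpr5scv1, against 42.4 and 29.9 in WT (log2 change 1.62 ± 0.32, adjusted p = 0.00512). CYP71B6 was at 260 and 287 in cpr5scv1, against 161 and 126 in WT (log2 change 0.94 ± 0.16, adjusted p = 0.00243). These P450 genes thus ranged from a near-background WT level to one well above it. Among 15 peroxidases and oxidative stress genes 5 rose and 1 fell. PRX71 (AT5G64120), a secreted peroxidase, had 115 and 94.5 in cpr5scv1, against 13.3 and 3.83 in WT, a rise of at least 10.3-fold (adjusted p = 0.000237). ATMDAR2, which regenerates ascorbate, had 382 and 383 in cpr5scv1, against 148 and 200 in WT (log2 change 1.15 ± 0.23, adjusted p = 0.00479). The fall was that of TAPX, the thylakoid ascorbate peroxidase, at 274 and 261 in cpr5scv1, against 503 and 454 in WT (adjusted p = 0.0113). It was lost without either cpr5scv1 array or WT replicate 1 (adjusted p up to 0.0661), and without WT replicate 2 the falls on this list numbered 2. With the replicate block they also numbered 2. Glutathione S-transferases, which conjugate glutathione to toxic compounds, gave 0 calls of 8 in limma, with a median of -0.44 and 4 lower at an unadjusted p below 0.05. The brightest of them, GSTU20, was at 990 and 1448 in cpr5scv1, against 1745 and 2209 in WT (adjusted p = 0.0796). With the replicate block 2 of them fell, 4 fell after scaling to 1 median and 1 fell without WT replicate 2.

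Autophagy genes were higher across the list, whose members are mostly ATG8 genes, so it does not describe the whole of autophagy. All 11 tested had a positive log2 change, with a median of 0.75, and 8 rose, or 5 without cpr5scv1 replicate 1. ATG8H had a signal of 154 and 185 in cpr5scv1, against 42.8 and 51.7 in WT (log2 change 1.84 ± 0.21, adjusted p = 0.000202). APG8A was at 323 and 365 in cpr5scv1, against 129 and 106 in WT (log2 change 1.56 ± 0.20, adjusted p = 0.000436). APG8H was at 723 and 654 in cpr5scv1, against 362 and 391 in WT (log2 change 0.87 ± 0.15, adjusted p = 0.00223). All 3 encode ATG8 proteins, the ubiquitin-like coat of the autophagosome, and in each the groups lay well apart. Of 5 senescence genes, 4 rose, WRKY53 among them. YLS5, a gene named for its expression in yellow leaves, had 326 and 332 in cpr5scv1, against 83.0 and 114 in WT (log2 change 1.76 ± 0.26, adjusted p = 0.000999).

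Protein folding and traffic showed smaller rises. The 14 endoplasmic reticulum folding genes tested all had a positive log2 change, with a median of 0.45, and 5 rose, while 0 fell, also at an unadjusted p below 0.05. The count was 2 without cpr5scv1 replicate 1, and 3 without cpr5scv1 replicate 2, WT replicate 2 or either npr1 array. BZIP60, a transcription factor of the unfolded protein response, was at 423 and 424 in cpr5scv1, against 112 and 192 in WT (log2 change 1.53 ± 0.27, adjusted p = 0.00246). ATERDJ3B, a J-protein of the endoplasmic reticulum, was at 523 and 464 in cpr5scv1, against 206 and 252 in WT (log2 change 1.11 ± 0.21, adjusted p = 0.00391). Among 45 secretory and vesicle traffic genes 11 rose, or 6 without cpr5scv1 replicate 1, and 0 fell, with 1 lower at an unadjusted p below 0.05. The members of the core included subunits or partners of the ESCRT machinery, which sorts membrane proteins for the vacuole. VPS20.1 was at 84.4 and 96.8 in cpr5scv1, against 22.4 and 33.3 in WT (log2 change 1.73 ± 0.26, adjusted p = 0.000948). VPS60.1 was at 147 and 106 in cpr5scv1, against 51.0 and 49.5 in WT (log2 change 1.31 ± 0.21, adjusted p = 0.00163). VPS37-2 (AT2G36680) was at 123 and 85.7 in cpr5scv1, against 45.7 and 47.8 in WT (log2 change 1.13 ± 0.21, adjusted p = 0.0034). The first 2 are small, related proteins of that machinery. TET8, a tetraspanin carried on secreted vesicles, was bright in both groups, at 1093 and 927 in cpr5scv1, against 541 and 428 in WT (log2 change 1.06 ± 0.20, adjusted p = 0.00333). It was the only call of 8 tetraspanins tested, or 12.5% beside 12.8% of all probe sets.

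Of 27 vacuolar processing enzymes, subtilases and carboxypeptidases, 22 were not called. Rises numbered 4, or 14.8% of the list beside 12.8% of all probe sets. There was 1 fall, or 2 without WT replicate 1 and 3 after scaling to 1 median. The median log2 change of 0.08 became -0.08 after quantile normalization and -0.12 after scaling to 1 median. With the replicate block 6 rose and 3 fell. SBT3.5, a subtilase, had a signal of 183 and 247 in cpr5scv1, against 23.0 and 15.7 in WT (log2 change 3.48 ± 0.32, adjusted p = 5.4e-05). GAMMA-VPE, a vacuolar protease of senescence and cell death, was at 776 and 810 in cpr5scv1, against 507 and 450 in WT (log2 change 0.73 ± 0.15, adjusted p = 0.006). SBTI1.1, another subtilase, fell to 21.2 and 26.7 in cpr5scv1, against 63.4 and 54.2 in WT (log2 change -1.30 ± 0.23, adjusted p = 0.00301). Subtilases therefore lay on both sides. Of 12 beta-glucosidases, 4 rose, 1 fell and 7 were not called. BGLU25 was at 421 and 252 in cpr5scv1, against 80.8 and 73.2 in WT (log2 change 2.08 ± 0.25, adjusted p = 0.000259). BGLU40 fell to 102 and 114 in cpr5scv1, against 198 and 255 in WT (log2 change -1.06 ± 0.18, adjusted p = 0.00247). PUB24, a U-box ubiquitin ligase that dampens immune responses, was at 150 and 127 in cpr5scv1, against 16.4 and 31.8 in WT (log2 change 2.60 ± 0.30, adjusted p = 0.000237). Of 30 proteasome and ubiquitin ligase genes tested, 4 rose (13.3%) and 2 fell (6.67%), beside 12.8% and 9.55% of all probe sets.

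**Figure D3:**
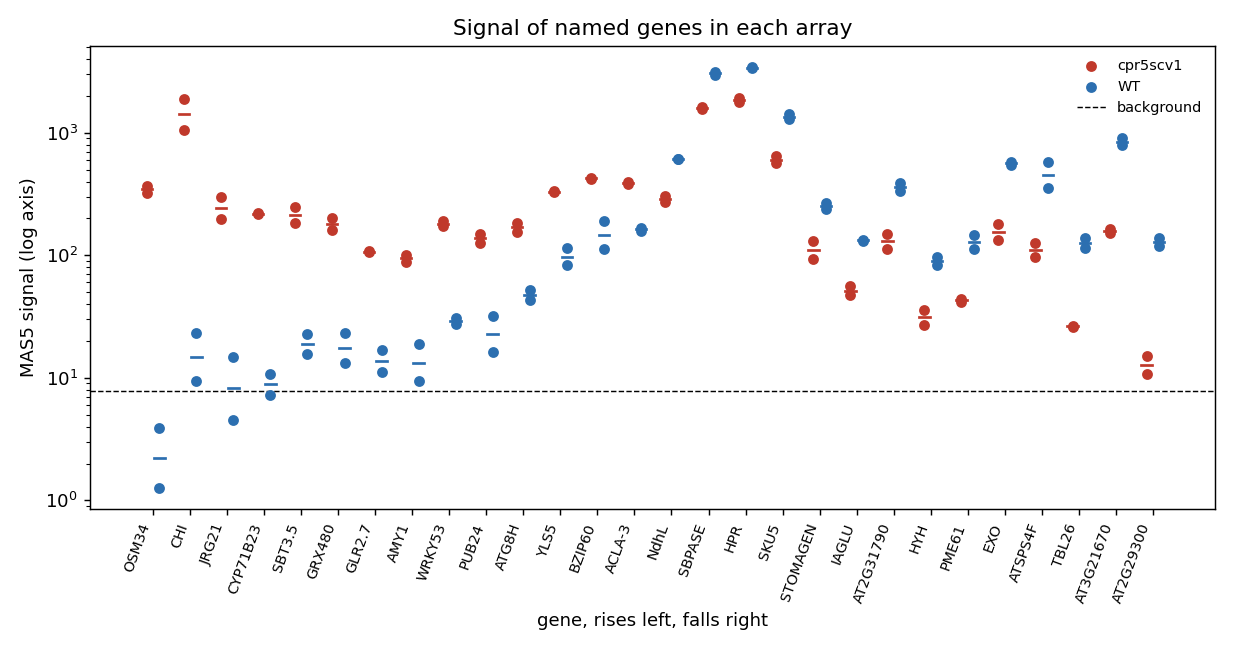
MAS5 signal (log axis) of 28 named genes in each array, cpr5scv1 in red at the left and WT in blue at the right of each gene, with bars at the geometric mean and a dashed line at background. The 14 rises stand at the left and the 14 falls at the right. In none do the arrays of the 2 groups overlap. That holds for 100% of called probe sets and for 59.4% of all tested.

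Among core probe sets with 1 listed gene and a brighter group mean of at least 40.8, the largest falls were about 5-fold to 10-fold. AT2G29300 had a signal of 10.8 and 15.1 in cpr5scv1, against 138 and 119 in WT (log2 change -3.33 ± 0.34, adjusted p = 0.000107). AT1G60590 had 29.4 and 24.2 in cpr5scv1, against 239 and 189 in WT (log2 change -2.995 ± 0.22, adjusted p = 1.61e-05). AT1G55960 had 125 and 139 in cpr5scv1, against 711 and 732 in WT (log2 change -2.46 ± 0.20, adjusted p = 2.53e-05). In these loci the replicate arrays were close and the groups far apart. In AT1G62510 the WT arrays were not close, at 50.3 and 52.4 in cpr5scv1, against 218 and 697 in WT (log2 change -2.92 ± 0.43, adjusted p = 0.000932). AT1G23205, AT4G26790, AT3G48460, AT3G19000, AT1G13650, AT5G59130 and AT1G10640 fell as well, with log2 changes between -2.33 and -2.699. The table gives these loci no symbol. NPF6.4 (AT3G21670), a member of the nitrate and peptide transporter family, fell to 152 and 163 in cpr5scv1, against 901 and 798 in WT (log2 change -2.43 ± 0.17, adjusted p = 1.38e-05).

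Genes encoded in the chloroplast and nuclear genes of photosynthesis were lower, mostly by less than 2-fold. The 69 chloroplast-encoded genes include RNA polymerase and ribosomal protein genes, so that list does not describe photosynthesis alone. All 69 had a negative log2 change, with a median of -0.43, and 6 of them fell. That is 8.7% of the list beside the 9.55% of all probe sets. Falls numbered 3 without cpr5scv1 replicate 1, 33 with the replicate block and 19 after scaling to 1 median. The list's median was -0.22 after quantile normalization, when the median over all probe sets was -0.11. Chloroplast transcripts are bright, and the brightest of the 5 bins of probe sets had a median of -0.21 as deposited. Of the 6, ndhJ, a subunit of the NDH complex that cycles electrons around photosystem I, had a signal of 819 and 774 in cpr5scv1, against 1517 and 1403 in WT (log2 change -0.87 ± 0.14, adjusted p = 0.00149). The list's median was -0.40 in cpr5 and -0.06 in cpr5npr1svi1, each against WT. In cpr5npr1 against npr1 it was -0.004, and 0 were called there or in cpr5npr1svi1. The nuclear photosystem and Calvin cycle lists had medians of -0.20 and -0.40 in cpr5npr1 against npr1, with 0 called.

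Among 31 genes on the list of nuclear photosystem and antenna genes, 29 had a negative log2 change, the median was -0.51 and 7 fell. The list also holds CRR genes and subunits of the NDH complex and of ATP synthase. Falls numbered 3 without either cpr5scv1 array, 4 without WT replicate 1, 18 with the replicate block and 14 after scaling to 1 median, and after quantile normalization the median was -0.42. NdhL, a nuclear subunit of the same NDH complex, had a signal of 272 and 306 in cpr5scv1, against 607 and 609 in WT (log2 change -1.07 ± 0.18, adjusted p = 0.00173). NdhN, another subunit, was lower in both pairs at 325 and 226 in cpr5scv1, against 736 and 503 in WT (adjusted p = 0.0254), and was not called without WT replicate 1 or cpr5scv1 replicate 2 (adjusted p up to 0.164). In the Calvin cycle and photorespiration, 3 of 4 genes tested fell, with a median of -0.80. SBPASE, sedoheptulose-bisphosphatase of the Calvin cycle, was at 1624 and 1562 in cpr5scv1, against 2969 and 3156 in WT (log2 change -0.94 ± 0.15, adjusted p = 0.00142). HPR, hydroxypyruvate reductase of photorespiration, was at 1781 and 1909 in cpr5scv1, against 3347 and 3440 in WT (log2 change -0.88 ± 0.15, adjusted p = 0.00237). The fourth gene was RCA, which was not called. Of 16 tetrapyrrole and carotenoid genes, 5 fell, with a median of -0.32. That count did not hold, since 0 fell without WT replicate 1 or cpr5scv1 replicate 1, 2 without cpr5scv1 replicate 2 and 3 without WT replicate 2 or either npr1 array. Rises on it, 0 here with 2 at an unadjusted p below 0.05, numbered 2 with the replicate block or without either cpr5npr1 array and 1 without cpr5scv1 replicate 1.

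Genes that loosen and build the cell wall fell more often than they rose. Of 29 expansins and wall-loosening genes, 9 fell and 2 rose, with a median of -0.47, so that 31% fell beside the 9.55% of all probe sets. Falls numbered 3 without cpr5scv1 replicate 1 and 5 without cpr5scv1 replicate 2, and rises 1 without either. XTH32, a xyloglucan endotransglucosylase, had a signal of 142 and 152 in cpr5scv1, against 306 and 466 in WT (log2 change -1.36 ± 0.23, adjusted p = 0.00233). EXGT-A3, of the same enzyme family, was at 408 and 424 in cpr5scv1, against 760 and 811 in WT (log2 change -0.92 ± 0.16, adjusted p = 0.00272). Pectin methylesterases went both ways. PME61 fell to 43.9 and 41.8 in cpr5scv1, against 112 and 146 in WT (log2 change -1.58 ± 0.22, adjusted p = 0.000744). PMEPCRF rose to 600 and 647 in cpr5scv1, against 215 and 245 in WT (log2 change 1.44 ± 0.20, adjusted p = 0.000626).

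Of 34 genes of wall synthesis, arabinogalactans and lignin, 8 fell and 4 rose, with a median of -0.02. That is 23.5% lower and 11.8% higher, beside 9.55% and 12.8% of all probe sets. Falls numbered 4 without WT replicate 1 or cpr5scv1 replicate 1 and 3 without cpr5scv1 replicate 2, and rises 1, 1 and 2. TBL26, of a family that acetylates wall polymers, had a signal of 26.7 and 26.2 in cpr5scv1, against 114 and 139 in WT (log2 change -2.25 ± 0.24, adjusted p = 0.000112). TBL28, of the same family, was at 25.2 and 37.1 in cpr5scv1, against 93.0 and 61.9 in WT (log2 change -1.31 ± 0.25, adjusted p = 0.00389). SKU5, a cell surface protein of directional growth, was at 563 and 644 in cpr5scv1, against 1288 and 1415 in WT (log2 change -1.17 ± 0.19, adjusted p = 0.0017). EXO, a brassinosteroid-responsive gene that promotes cell expansion, fell to 134 and 179 in cpr5scv1, against 550 and 580 in WT (log2 change -1.87 ± 0.27, adjusted p = 0.000806). Peptide signal genes fell in 4 of 9 tested, with a median of -0.74, or in 1 without WT replicate 2 or cpr5scv1 replicate 1. STOMAGEN, a secreted peptide that raises stomatal density, was at 94.1 and 131 in cpr5scv1, against 240 and 266 in WT (log2 change -1.19 ± 0.22, adjusted p = 0.00357).

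Of 26 sugar and starch genes 18 were not called, 4 rose and 4 fell. That is 15.4% in each direction, beside 12.8% higher and 9.55% lower over all probe sets. Rises numbered 2 without WT replicate 2 or either cpr5scv1 array. AMY1, an alpha-amylase, had a signal of 101 and 89.0 in cpr5scv1, against 18.9 and 9.36 in WT (log2 change 2.83 ± 0.36, adjusted p = 0.000369). ATSPS4F, a sucrose-phosphate synthase, fell to 97.2 and 127 in cpr5scv1, against 580 and 351 in WT (log2 change -2.02 ± 0.24, adjusted p = 0.000237). TMT2, a sugar carrier of the vacuole membrane, fell to 49.4 and 61.2 in cpr5scv1, against 142 and 111 in WT (log2 change -1.19 ± 0.18, adjusted p = 0.0013). AMY1 and ATSPS4F thus went in opposite directions, but 1 gene each does not describe starch breakdown or sucrose synthesis. In sulfate assimilation, called genes of 1 enzyme family, the ATP sulfurylases, went in opposite directions as well. APS4 rose to 230 and 221 in cpr5scv1, against 55.1 and 83.1 in WT (log2 change 1.74 ± 0.27, adjusted p = 0.00131). APS3 fell to 159 and 122 in cpr5scv1, against 268 and 285 in WT (log2 change -0.99 ± 0.18, adjusted p = 0.00346). Of 27 genes tested on the list of mitochondrial respiration and citrate cycle genes, 6 rose and 2 fell. The list also holds subunits of ATP citrate lyase, which is not a citrate cycle enzyme, so its counts do not describe respiration alone. With the replicate block 10 rose and 4 fell, and without either cpr5scv1 array 3 rose and 0 fell. The falls were also lost without WT replicate 1, and numbered 1 without any cpr5npr1 or cpr5npr1svi1 array. ACLA-3, a subunit of ATP citrate lyase, was at 379 and 393 in cpr5scv1, against 159 and 167 in WT (log2 change 1.25 ± 0.14, adjusted p = 0.000189).

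Enzymes that remove free auxin went both ways. GH3.3, which joins auxin to amino acids, rose to 162 and 221 in cpr5scv1, against 53.3 and 57.0 in WT (log2 change 1.78 ± 0.27, adjusted p = 0.00124). WES1, of the same family, rose to 245 and 280 in cpr5scv1, against 123 and 128 in WT (log2 change 1.06 ± 0.20, adjusted p = 0.00339). IAGLU, which joins auxin to glucose, fell to 47.1 and 56.4 in cpr5scv1, against 134 and 132 in WT (log2 change -1.37 ± 0.18, adjusted p = 0.000463). Of the 10 auxin genes tested these were the only calls, and without WT replicate 2 or cpr5scv1 replicate 1 the falls numbered 2, as they did with the replicate block. COR15A, a cold-regulated chloroplast protein, was at 115 and 120 in cpr5scv1, against 30.9 and 40.6 in WT (log2 change 1.73 ± 0.27, adjusted p = 0.00134). HYH, a light-signalling factor of the bZIP family, fell to 27.0 and 36.0 in cpr5scv1, against 97.2 and 82.7 in WT (log2 change -1.52 ± 0.30, adjusted p = 0.00504).

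**Figure D4:**
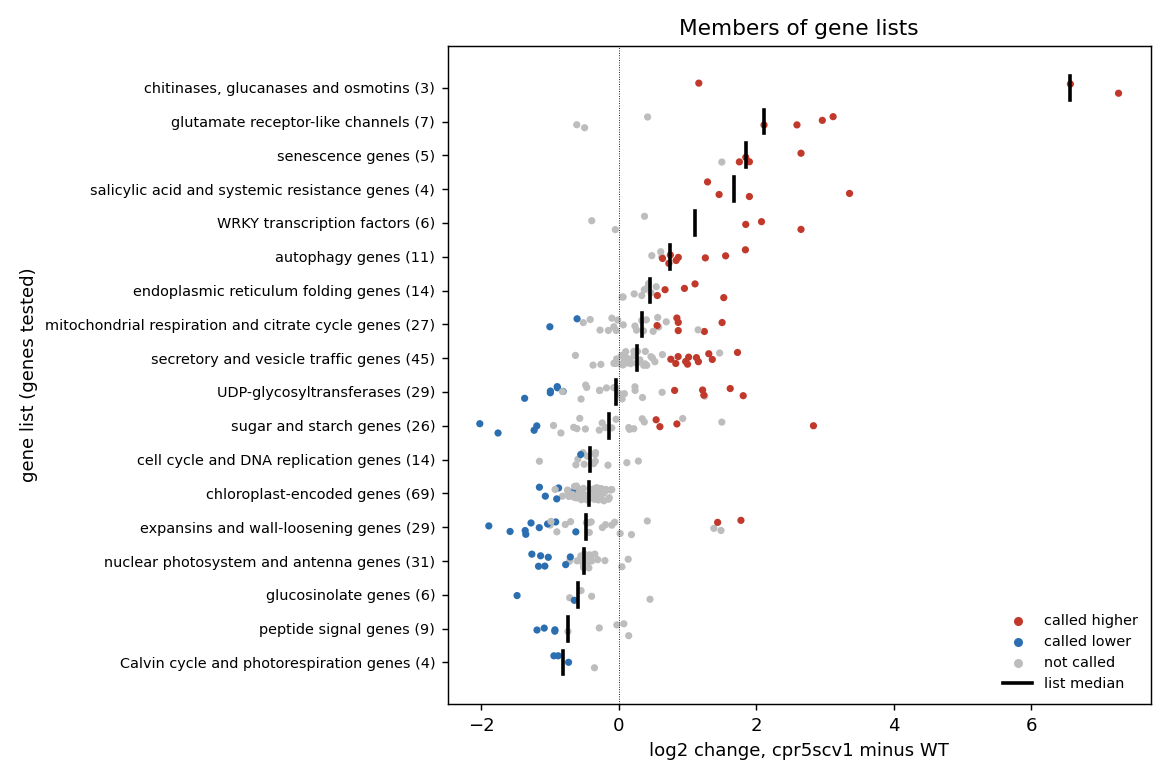
Log2 change (cpr5scv1 minus WT) of each gene tested on 18 gene lists, with called rises in red, called falls in blue, other genes in grey and a black bar at each list's median. Chitinases, glucanases and osmotins have the highest median, 6.57, and Calvin cycle and photorespiration genes the lowest, -0.80, and some genes stand on more than 1 list.

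The cpr5npr1 and npr1 arrays share no array with cpr5scv1 or WT, and the difference between them is also a difference made by cpr5, there in an npr1 background. The spread estimate of the model is common to all. Over all probe sets tested, 49.9% were higher in cpr5npr1 than in npr1 and 50.1% lower. Of the 2045 probe sets that rose in cpr5scv1, 1942 (95%) were higher in cpr5npr1 than in npr1, with a median log2 difference of 0.71. Of these 2045, 649 were called higher there, which is 31.7% beside 4.32% of all probe sets tested, and 0 were called lower, with 3 lower at an unadjusted p below 0.05. Of the 1520 that fell, 1412 (92.9%) were lower in cpr5npr1, with a median of -0.36. Of these, 96 were called lower, 6.32% beside 0.798% of all, and 0 were called higher, with 5 higher at an unadjusted p below 0.05. Without cpr5npr1 replicate 1 or npr1 replicate 1 the called rises numbered 255 and 340, and the called falls 14 and 21. Falls numbered 25 and rises 433 without npr1 replicate 2, and with the replicate block falls numbered 299.

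**Figure D5:**
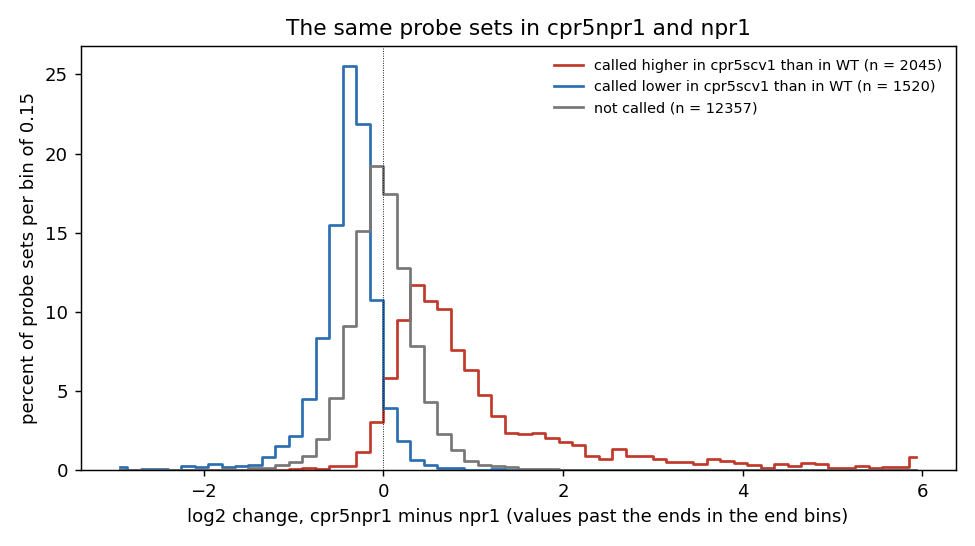
Distribution of the log2 difference between cpr5npr1 and npr1 for probe sets called higher (red), called lower (blue) or not called (grey) in cpr5scv1 against WT, in percent of each set per bin of 0.15. The red curve has its median at 0.71 and a long right tail, and the blue curve has its median at -0.36.

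Several of the rises described above were found there too. OSM34 had a signal of 323 and 397 in cpr5npr1, against 0.442 and 2.17 in npr1 (adjusted p = 9.09e-05). SBT3.5 was at 274 and 149 in cpr5npr1, against 20.8 and 17.7 in npr1 (log2 change 3.40, adjusted p = 0.000215). COR15A was at 171 and 130 in cpr5npr1, against 23.1 and 24.4 in npr1 (log2 change 2.65, adjusted p = 0.000308). These genes were high in every array of the double mutant. AT1G76960, among the largest rises in cpr5scv1, was at 187 and 213 in cpr5npr1, against 10.8 and 23.4 in npr1, and was not called (adjusted p = 0.123). JRG21 was at 48.6 and 42.6 in cpr5npr1, against 16.0 and 7.61 in npr1 (adjusted p = 0.0651). GH3.3 was at 50 and 84.6 in cpr5npr1, against 66.5 and 75 in npr1 (adjusted p = 0.889). AT2G29300, the first of the large falls given above, was at 67.9 and 42.6 in cpr5npr1, against 84.7 and 50.4 in npr1 (adjusted p = 0.764). Here the arrays of the 2 groups overlapped for GH3.3 and AT2G29300. Whether the change in cpr5scv1 differed from that in cpr5npr1 was not tested.

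Set directly against cpr5, the cpr5scv1 arrays gave 128 calls (0.804%), 52 higher (0.327%) and 76 lower (0.477%). Of these, 109 were also called against WT, 41 higher in both and 68 lower in both. The 2 comparisons share the cpr5scv1 arrays, and the count moved with single arrays. It was 9 and 34 without cpr5scv1 replicate 1 and 2, 18 and 26 without cpr5 replicate 1 and 2, and 240 without either WT array. With the replicate block it was 605. EXO stood out. Its signal was 134 and 179 in cpr5scv1, against 1163 and 965 in cpr5 (log2 change -2.78 ± 0.27, adjusted p = 0.00304), with WT at 550 and 580 between them. AT1G13650 was at 84.8 and 82.7 in cpr5scv1, against 291 and 267 in cpr5 (log2 change -1.73 ± 0.18, adjusted p = 0.00304). Both calls held under all 20 alternatives. Both cpr5 arrays of AT1G13650 were also below its WT arrays, which stood at 403 and 501.

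The next genes were called against cpr5 but had no call in cpr5 against WT. AT3G23550 was at 484 and 325 in cpr5scv1, against 22.7 and 44.1 in cpr5 (log2 change 3.65 ± 0.45, adjusted p = 0.00693), and at 62.6 and 25.4 in WT. It was not called without cpr5 replicate 1 or cpr5scv1 replicate 1 (adjusted p up to 0.0758). CYP71B22 was at 96.3 and 124 in cpr5scv1, against 18.6 and 26 in cpr5 (log2 change 2.31 ± 0.32, adjusted p = 0.0107), and was not called without cpr5 replicate 1 or either cpr5scv1 array (adjusted p up to 0.103). CYP71B6 was at 260 and 287 in cpr5scv1, against 121 and 118 in cpr5 (log2 change 1.19 ± 0.16, adjusted p = 0.00996). IAGLU was at 47.1 and 56.4 in cpr5scv1, against 109 and 134 in cpr5 (log2 change -1.23 ± 0.18, adjusted p = 0.0121). BGLU40 was at 102 and 114 in cpr5scv1, against 244 and 278 in cpr5 (log2 change -1.27 ± 0.18, adjusted p = 0.0121). The last 3 were not called without any 1 of the cpr5scv1 and cpr5 arrays (adjusted p up to 0.0903 for CYP71B6, 0.14 for IAGLU and 0.136 for BGLU40). In each of these genes all cpr5scv1 arrays lay beyond both the cpr5 and the WT arrays.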

How the data were processed

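Values were taken from the deposited table, which holds MAS5 signal, a linear intensity, per the submitters' processing notes; the sources used here give neither its version nor its settings. Every array's mean after 2% trimming at each end was 100.01, so the deposited arrays had been scaled alike. All were above 0 and log2 was taken without a pseudocount. The rule for these groups calls the table log2, which the values are not.

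Testing used limma 3.58.1 (R 4.3.3) in 1 model of 6 group means over 12 arrays, with an intensity trend and 6 residual degrees of freedom. Calls needed an adjusted p below 0.05, by Benjamini-Hochberg over all probe sets of the comparison. An adjusted p in the text comes from this model unless an alternative is named. Each array left out in turn leaves its group 1 array, which is assumed to vary like the others. Genes were named from the platform annotation and the gene table of TAIR10.1: 13513 of 22746 probe sets had 1 gene, 503 several and 8730 none, and 1767 of the 3565 calls carried no single gene. Where a gene had more than 1 probe set, its brightest stood for it. Folds are lower bounds, with dim arrays raised to background, where the dimmer group had arrays below it.

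Named genes were the 12 steepest rises and 12 steepest falls held under each of the 20 alternatives listed first below, with arrays that did not overlap and a brighter group mean of at least 40.8; up to 3 calls per direction on each list, or the brightest member where none was called; up to 5 per direction also called against cpr5; and the genes named as checks or markers. Members, lists and tests were chosen with earlier results of these data known. The model was tested on simulated data.

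Replicate numbers come from the titles. Differences between replicates 1 and 2, taken for each of the 15 pairs of groups, had correlations of 0.175 to 0.363, all above 0.1, the level set for pairing arrays by number. The model above has no term for the pairs, and its calls and p-values are unpaired; the replicate block is an alternative. Alternatives were 2 scalings, a pseudocount of 32, no filter and one of 50%, no trend, only the compared arrays, the replicate block and 12 omitted arrays; the block with only the 4 arrays was added after seeing the data. Promoter and protein sequences were not used here.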

Additional observations from a re-analysis of the deposited data

How the results depend on the processing

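Called probe sets in cpr5scv1 against WT numbered 3565, 2045 higher and 1520 lower. With 1 array left out they ranged from 1864 to 3495, with 1204 to 2015 higher and 660 to 1501 lower. With only the 4 arrays compared they were 2026, 1333 and 693. The replicate block, which pairs arrays by number, gave 5412 calls with 2616 lower, and the block over the 4 arrays alone 2984. Scaling to 1 median gave 1575 higher and 2664 lower, the only setting of those run in which falls outnumbered rises. Against WT with 1 array left out, cpr5 had 539 to 1567 calls, cpr5npr1 460 to 1521, npr1 1 to 302 and cpr5npr1svi1 753 to 2209. With only the arrays compared these were 516, 352, 0 and 664, and with the replicate block 2773, 2574, 4 and 3404. The npr1 count was also 0 with the filter of 50% and with the pseudocount of 32, and 899 probe sets had an unadjusted p below 0.05 there. For cpr5scv1 against cpr5, 128 calls became 9 to 240 with 1 array left out, 81 with no intensity trend, 279 with only the arrays compared, 208 with the pseudocount and 605 with the replicate block. The cause of these shifts was not tested. In cpr5scv1 against WT, PYK10, which was not called, changed sign without WT replicate 1 (log2 difference -0.18 beside 0.94) and was called without WT replicate 2 (2.05, adjusted p = 0.00475). No other named gene changed sign in any alternative. The medians of the calcium signalling, wall synthesis and vacuolar enzyme lists, which lie near 0, changed sign in some. With 2 arrays a group, precision rests on a spread estimate shared by all genotypes, and signals near background carry only bounds.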

Other observations

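Of 17 genes of translation and the nucleolus 3 fell, with a median log2 change of -0.22, but 0 did without WT replicate 1 or either cpr5scv1 array and 1 without either cpr5 array, and 5 fell with the replicate block. Of 14 cell cycle and DNA replication genes 12 were lower, with a median of -0.41, and 1 fell, POLA3. That is 7.14% of the list beside the 9.55% of all probe sets, while 17.6% of the translation list fell. POLA3 was at 58.5 and 59.1 in cpr5scv1, against 82.9 and 89.6 in WT (adjusted p = 0.0479). Its call was lost without any array of cpr5scv1, WT, npr1, cpr5npr1 or cpr5npr1svi1. Of 7 histone genes 1 fell (14.3%), HTB1, at 120 and 177 in cpr5scv1, against 391 and 290 in WT (adjusted p = 0.0313). That call was lost without WT replicate 1 or cpr5scv1 replicate 1. UDP-glycosyltransferases gave 5 rises and 6 falls of 29 (17.2% and 20.7%, beside 12.8% and 9.55% of all probe sets), and 1 rise after quantile normalization, after scaling to 1 median or without either cpr5scv1 array. Rises numbered 2 without WT replicate 1 and 3 without WT replicate 2 or any cpr5 or cpr5npr1 array, and falls 3 without WT replicate 1 and 2 without cpr5scv1 replicate 1. UGT78D1, which adds rhamnose to flavonols, fell to 85.6 and 102 in cpr5scv1, against 163 and 212 in WT (log2 change -0.99 ± 0.19, adjusted p = 0.00455). On the glucosinolate list 2 of 6 genes fell, or 5 after scaling to 1 median, 3 with the replicate block and 1 without cpr5scv1 replicate 1 or with only the 4 arrays compared. On it AT2G31790 was at 150 and 112 in cpr5scv1, against 336 and 386 in WT (log2 change -1.48 ± 0.18, adjusted p = 0.000257). Of 8 gibberellin, cytokinin and brassinosteroid genes 3 rose and 2 fell, or 1 rose without cpr5scv1 replicate 2 or with only the 4 arrays compared, and 1 fell without WT replicate 2 or either cpr5scv1 array.

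Probe sets with no single gene include changes as large as any named one. The 625 of them in the core set of calls hold the probe set 251625_at, at 2069 and 2215 in cpr5scv1, against 22.8 and 1.61 in WT (log2 change 8.46, adjusted p = 0.000127), and 262113_at, at 20.3 and 35.6 in cpr5scv1, against 742 and 499 in WT (log2 change -4.50, adjusted p = 2.53e-05). They were chosen after their values were seen, as the largest rise and fall of that set.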
